A study of Mus musculus with 53 samples.

Results

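The genes described here are 9 matrix metalloproteinases, Mmp2, Mmp3, Mmp7, Mmp8, Mmp9, Mmp10, Mmp12, Mmp13 and Mmp14, together with Timp1, the gene of a secreted inhibitor of such proteases. They were taken by symbol from a table of raw RNA-seq counts, in which they are 10 of 55421 gene identifiers, and each of the 10 had reads in the table. Matrix metalloproteinases are zinc-dependent enzymes, secreted or held at the cell surface, that cut collagens, laminins and other proteins around cells, and that also shed or activate cytokines and growth factors. Most are made as inactive precursors, are switched on by removal of a propeptide, and are blocked by the 4 tissue inhibitors of metalloproteinases, Timp1 to Timp4. In the intestine Mmp7 is known as the protease of Paneth cells that matures alpha-defensins, Mmp8 and Mmp9 are stored in the granules of neutrophils, Mmp12 is made by macrophages, and Mmp2, Mmp3 and Mmp14 are largely products of fibroblasts.

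The 53 libraries were single-mouse samples of whole tissue in 11 groups. Every mouse, controls included, carried VilCreER, a tamoxifen-inducible recombinase whose Villin promoter restricts recombination to the intestinal epithelium, and was given tamoxifen in early adulthood. BA mice (VilCreER Braf V600E/+ Alk5 fl/fl) express mutant BRAF and lack Alk5, the TGFβ receptor encoded by Tgfbr1, in that epithelium, and A mice (VilCreER Alk5 fl/fl) lack Alk5 alone. From the proximal colon there were primary BA tumours (n = 4), WT tissue (n = 3) and, sampled on day 30 after induction, WT (n = 4), A (n = 4), BA (n = 5), A given sulindac at 0.4 g/L in drinking water for the first 14 days (n = 4) and BA given ampicillin at 1 g/L, neomycin trisulphate at 1 g/L, vancomycin at 500 mg/L and metronidazole at 1 g/L by the same route, started a day after tamoxifen (n = 5). From the small intestine there were VilCreER Apc fl/+ primary tumours (n = 5), WT tissue (n = 3), and VilCreER Apc fl/fl (n = 10) and WT (n = 6) tissue sampled on day 4 after induction. WT means VilCreER alone. The background was mixed C57BL/6J at backcross N6, except for the Apc fl/+ tumours and their WT small intestine, which were inbred at N9.

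Levels are given as CPM, each gene's share of the reads on genes in a library scaled to a common total, in the order of the replicate numbers, and, for any comparison between genes, as CPM per kilobase of exon. Changes are log2 fold changes with the standard error of the fit, and adjusted p-values come from edgeR's quasi-likelihood test with Benjamini-Hochberg adjustment over every gene tested, with 0.05 as the threshold. A gene is said to have risen or fallen only where it passed that threshold. These p-values measure the spread between the mice sampled.

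Libraries held from 516985 to 32824795 reads on genes, and at the median depth of a group 3 reads correspond to 0.138 to 0.192 CPM. The summed level of 5 colon markers, among them Car1, Aqp8, Slc26a3 and Car4, was 12967 to 29034 CPM in the non-tumour colon libraries, 849 to 5070 CPM in BA tumours and at most 318 CPM in the small intestine. Replicate 2 of the Apc fl/+ tumours stood apart. Its 6 small intestine markers summed to 35.6 CPM, against 4662 to 7310 CPM in the other 4 tumours, and its colon markers to 318 CPM against 57.4 to 85.5 CPM. Replicate 3 of the antibiotic-treated BA mice also stood apart, with fibroblast markers summing to 8022 CPM against 1066 to 1647 CPM in its group, as did Apc fl/fl replicates 1 (the shallowest library), 5 (fibroblast markers 2919 CPM) and 8 (fibroblast markers 446 CPM). Results that rest on these libraries are given with and without them. Ddx3y, a gene of the Y chromosome, was above 10 CPM in 3 of 4 BA tumours and in 0 of 3 WT colons, in 1 of 5 Apc fl/+ tumours and in 3 of 3 WT small intestines, and in every library of day 30, so sex was unbalanced in both tumour comparisons. On day 4 Ddx3y was above 10 CPM in 4 of 10 Apc fl/fl and 4 of 6 WT libraries. Gm13394 was above 10 CPM in every A and BA library of day 30 and in 0 of 4 WT d30 libraries. It was above 10 CPM in 0 of 5 Apc fl/+ tumours and 3 of 3 WT small intestines. What sets it apart cannot be told apart from genotype in these comparisons. It was also unbalanced in the BA tumour comparison, above 10 CPM in 3 of 4 tumours and 0 of 3 WT colons.

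Of the 10 genes, 6 lie side by side in the same direction on chromosome 9 (GRCm38), within 0.427 Mb: Mmp13 (chr9:7272514-7283331), Mmp12 (chr9:7344381-7369499), Mmp3 (chr9:7445822-7455975), Mmp10 (chr9:7502352-7510240), Mmp8 (chr9:7558456-7568485) and Mmp7 (chr9:7692090-7699585). The others are Mmp2 (chr8:92827291-92853420), Mmp9 (chr2:164940780-164955850), Mmp14 (chr14:54431612-54445364) and Timp1 (chrX:20870166-20874735). All 10 are on the plus strand and code for protein. Some counts are less certain than others. In 36-base words, the length of the reads, 12.3% of the exon sequence of Mmp3 and 10.8% of that of Mmp10 also occur in other genes, chiefly in one another, 8.62% of Mmp7 is shared with AV064505, which overlaps it on the other strand, 5.26% of Mmp12 with Mmp1b, and 2.20% of Mmp14 with Olfr2. Timp1 lies within Syn1, which runs the other way. Whether the counting used strand is not given in the sources used here.

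Promoters of this family are known for AP-1 elements, bound by Fos and Jun proteins downstream of RAS, RAF and MAPK signalling, and for nearby PEA3 elements bound by ETS factors such as Etv4. RefSeq promoter windows of GRCm38.p6 matched 8 of the 10 genes, with 10 annotated starts, and Mmp2 and Mmp9 had none. In the 250 bases before the start, the AP-1 element TGANTCA, which reads as TGANTCA on both strands, was found once at 5 of the 10 starts, against 6.75% of 32851 windows over all genes. The 5 starts belong to Mmp3, Mmp7, Mmp10, Mmp12 and Mmp13, all in the chromosome 9 cluster. They are printed because Mmp10, Mmp12, Mmp3 and Mmp7 hold the 4 largest changes of the family in BA tumours, with Mmp13 beside them in the cluster, and each line shows the 120 bases before an annotated start on the plus strand, 5′ to 3′, with the AP-1 match in capitals. That of Mmp12 belongs to a second start, which lies inside its longer transcripts.
Mmp13 (chr9:7272394-7272513): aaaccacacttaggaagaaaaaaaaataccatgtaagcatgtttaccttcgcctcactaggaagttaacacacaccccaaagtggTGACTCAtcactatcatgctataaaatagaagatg
Mmp12 (chr9:7347254-7347373): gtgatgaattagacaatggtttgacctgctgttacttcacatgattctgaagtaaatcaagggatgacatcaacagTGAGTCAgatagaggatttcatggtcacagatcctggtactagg
Mmp3 (chr9:7445702-7445821): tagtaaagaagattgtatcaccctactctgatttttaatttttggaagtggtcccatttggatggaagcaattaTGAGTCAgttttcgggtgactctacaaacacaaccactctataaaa
Mmp10 (chr9:7502222-7502341): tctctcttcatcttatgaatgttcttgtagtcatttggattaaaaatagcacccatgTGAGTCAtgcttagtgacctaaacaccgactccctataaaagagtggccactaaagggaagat
Mmp7 (chr9:7691970-7692089): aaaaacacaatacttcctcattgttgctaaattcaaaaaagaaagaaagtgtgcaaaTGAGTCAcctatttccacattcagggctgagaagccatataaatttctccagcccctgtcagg

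The AP-1 match began 35 bases before the start of Mmp13, 44 before the second start of Mmp12, 46 before that of Mmp3 and 63 before those of Mmp10 and Mmp7. In 4 of the 5 the letters were the same, TGAGTCA, and Mmp13 had TGACTCA. The PEA3 element AGGAAG, searched on both strands, was found at 8 of the 10 starts, those of Mmp3, Mmp7, Mmp8, Mmp13, Mmp14 and Timp1 and the first start of Mmp12, against 29.5% of all windows. Mmp10 held none. Mmp8, Mmp14 and Timp1 had no exact AP-1 match in these 250 bases, which says only that those letters are not in the window.

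**Figure D1:**
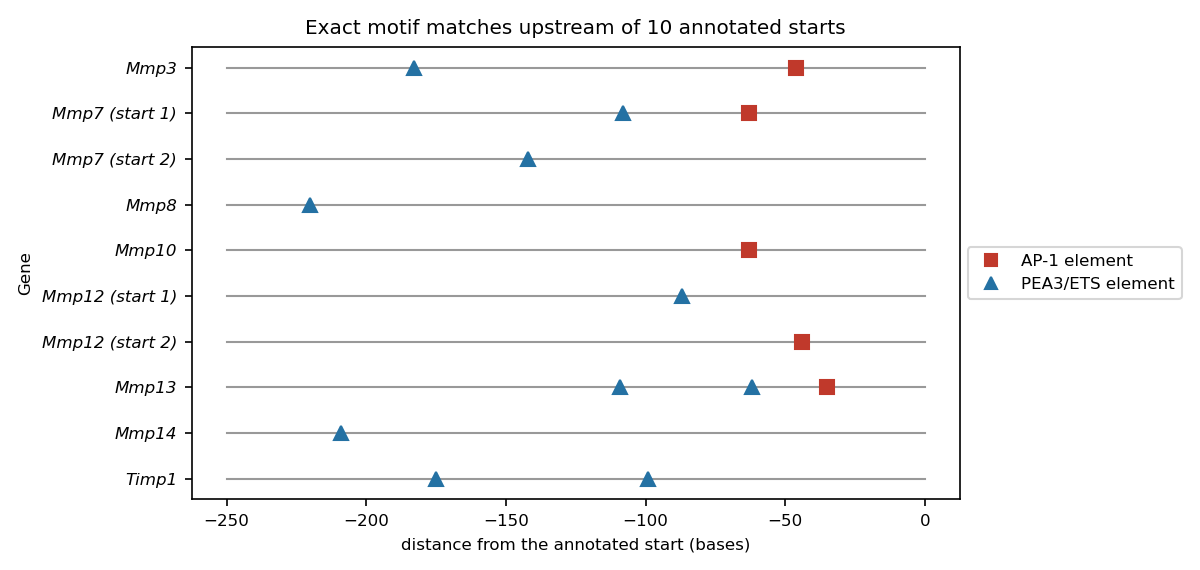
Position of exact matches to the AP-1 element (squares) and the PEA3 element (triangles) in the 250 bases before 10 annotated starts of 8 genes; the horizontal axis is the distance from the start in bases. The AP-1 matches lie 35 to 63 bases before 5 starts, all of genes in the chromosome 9 cluster.

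Per kilobase of exon, the non-tumour colon and the small intestine led with different proteases. In every non-tumour colon library the most abundant of the 9 proteases was Mmp2, a gelatinase, with group means of 16.0 to 23.7 CPM per kb in 5 of the 6 groups. In antibiotic-treated BA mice the mean was 33.0 CPM per kb with replicate 3 and 17.0 CPM per kb without it. In the small intestine Mmp7 led in every library but 1, with group means of 97.3 CPM per kb in WT, 135 in WT d4, 369 in Apc fl/fl and 202 in Apc fl/+ tumours. Mmp10 came next there, at 23.7 CPM per kb in WT, 21.8 in WT d4 and 47.7 in Apc fl/fl, and at 163 in Apc fl/+ tumours, where it led in 1 of 5. BA tumours matched neither pattern, since Mmp2 led in 2 of them and Mmp7 in the other 2. Mmp8, a collagenase of neutrophils, had the lowest mean in 9 of the 11 groups, and no group mean of it exceeded 1.96 CPM per kb.

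Summed over the 9 proteases, the level was 30.25 to 31.9 CPM per kb in WT colon and 139 to 232 in BA tumours, and 122 to 186 in WT small intestine and 412 to 642 in Apc fl/+ tumours. On day 30 it was 35.0 to 39.9 in WT and 30.0 to 46.2 in BA mice. Timp1 was 6.15% to 7.45% of the protease sum in WT colon and 16.2% to 25.4% in BA tumours, whereas it was 0.453% to 0.963% in WT small intestine and 1.90% to 4.21% in Apc fl/+ tumours. In both tumour types the inhibitor transcript was therefore a larger share of the sum than in the WT tissue, with no overlap between libraries.

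**Figure D2:**
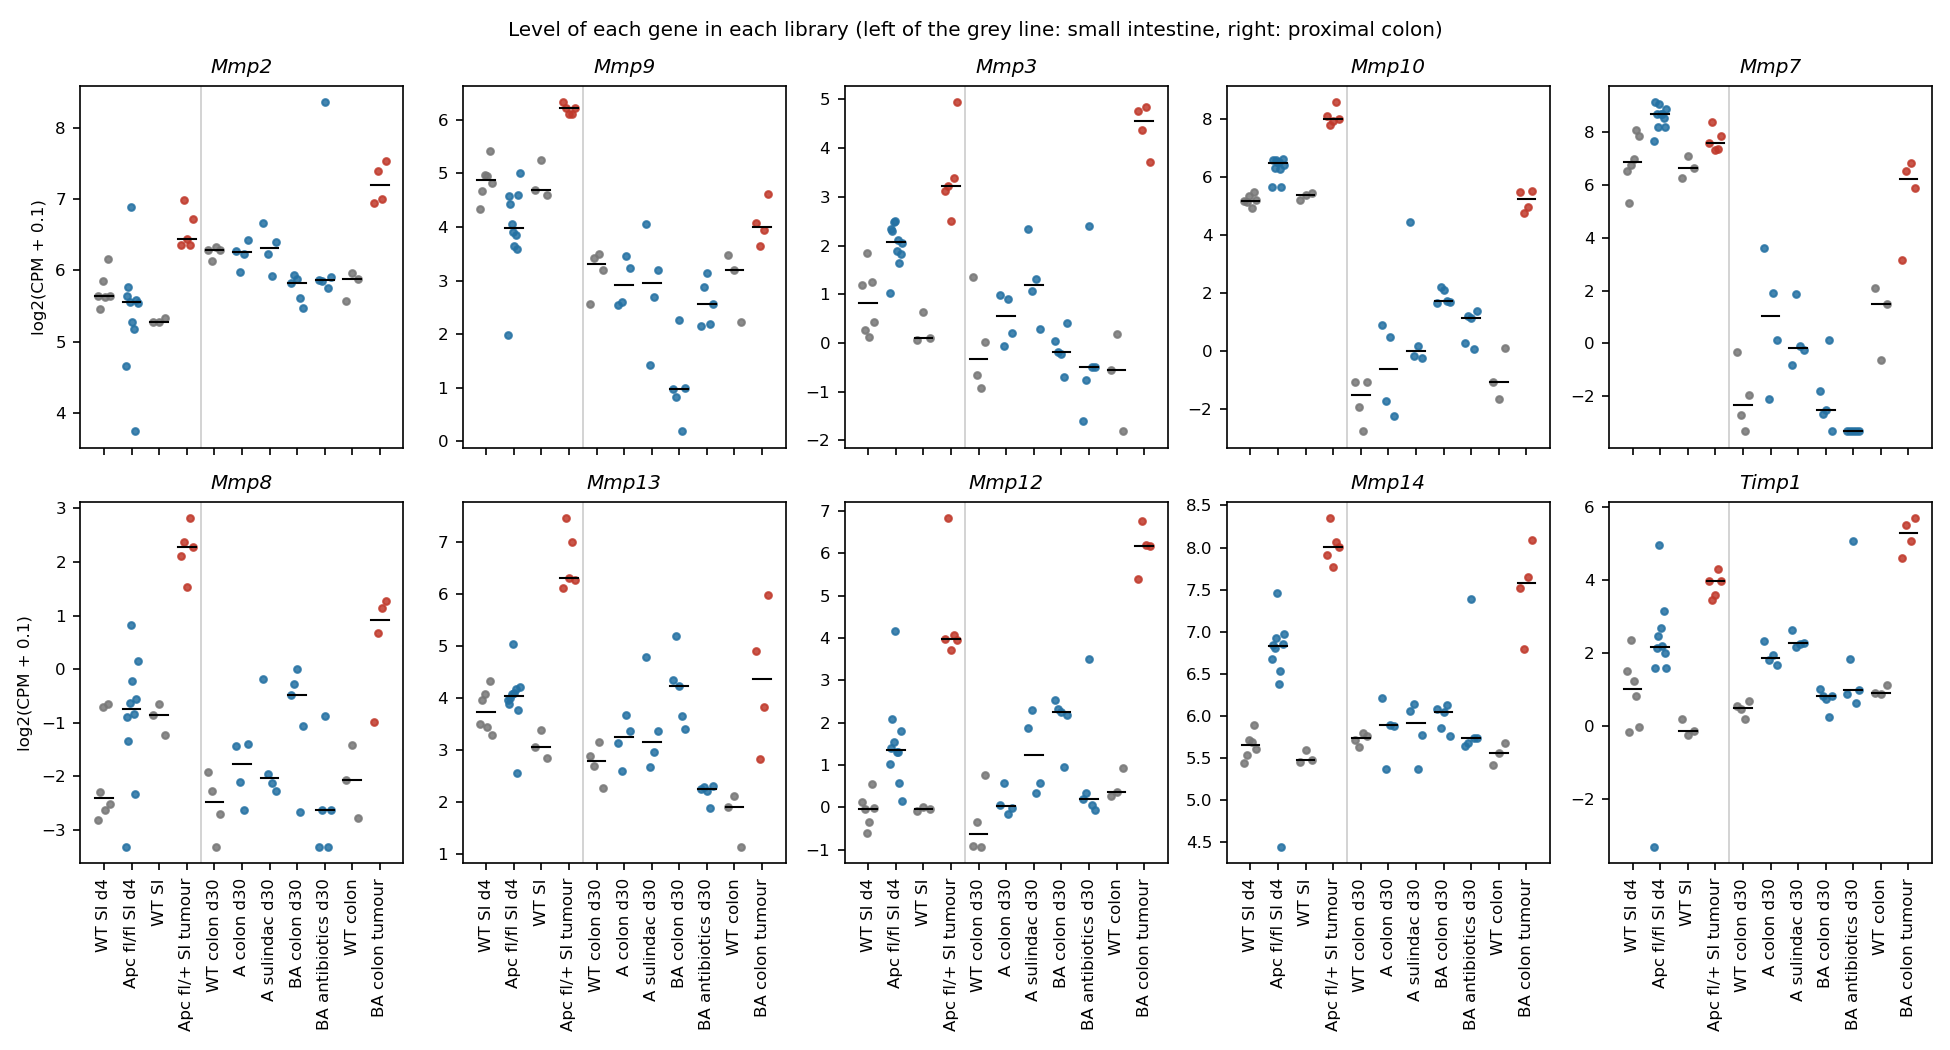
Level of each of the 10 genes in every library, by group, as log2(CPM + 0.1); each point is 1 mouse, the line is the median of the group, and the grey line parts small intestine from proximal colon. Both tumour groups (red) sit above their own WT tissue (grey) for all 10 genes, without overlap; the share of all genes without overlap was not counted.

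The comparison of BA tumours with WT proximal colon asked how the family differs in invasive tumours of the right colon. In these tumours 9 of the 10 genes rose, Mmp9 did not pass the test, and the libraries of the 2 groups did not overlap for any of the 10. The share of all genes without overlap was not counted, so that count has no base to be read against. The largest changes were in Mmp10, Mmp12 and Mmp3, followed by Mmp7 and Timp1. Over all 19188 genes tested 7.46% rose and 5.71% fell, and the median log2 fold change was 3.94 over the 10 genes and 0.03 over all genes. In whole tissue such as this, fewer cells of a type and less RNA per cell cannot be told apart.

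Of the stromelysins, which degrade proteoglycans and laminins and can activate other matrix metalloproteinases, Mmp10 stood at 45.4, 27.1, 31.6 and 46.5 CPM in the 4 tumours and at 0.378, 0.218 and 0.973 CPM in WT colon. Every tumour lay far above every control, and the log2 fold change was 6.15 ± 0.46 (SE; edgeR adjusted p = 0.000422). Mmp3 was at 27.0, 20.5, 28.6 and 13 CPM in tumours and at 0.584, 1.04 and 0.185 CPM in WT colon. It rose by a log2 of 5.24 ± 0.57 (edgeR adjusted p = 0.00156). Mmp10 and Mmp3 were low in WT colon and entered the test through the tumours, so the sizes of these folds are uncertain. Mmp12, the macrophage elastase, was at 41.8, 109, 73.4 and 71.9 CPM in tumours and at 1.10, 1.20 and 1.81 CPM in WT colon. It rose by a log2 of 5.87 ± 0.54 (edgeR adjusted p = 0.000949), with no tumour below 41.8 CPM. These 3 genes remained called without any 1 library and with every alternative test.

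Timp1 was at 24.3, 46.1, 33.4 and 51.9 CPM in tumours, and its 3 controls were close together at 1.79, 1.74 and 2.08 CPM. It rose by a log2 of 4.45 ± 0.42 (edgeR adjusted p = 0.000981). Mmp14, the membrane-bound protease that activates pro-Mmp2, was at 183, 111, 201 and 272 CPM against 42.7, 47.1 and 51.0 CPM, a log2 fold change of 2.02 ± 0.27 (edgeR adjusted p = 0.00316). Mmp2 itself, a gelatinase, was at 123, 168, 127 and 185 CPM against 47.2, 62.1 and 58.7 CPM, a log2 fold change of 1.48 ± 0.30 (edgeR adjusted p = 0.0136). All 4 tumours were above all 3 controls for each of these genes. Mmp9, the other gelatinase, was at 16.7, 12.5, 15.2 and 24.3 CPM against 10.99, 9.04 and 4.59 CPM. Its log2 fold change of 1.08 ± 0.33 did not pass the edgeR test (adjusted p = 0.0628), but did in DESeq2 (adjusted p = 0.0244) and in limma-voom (adjusted p = 0.00485).

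The tumours differed most among themselves in Mmp7 and Mmp13. Mmp7, the matrilysin of Paneth cells, was at 8.70, 93.0, 113 and 58.4 CPM in tumours and at 4.12, 0.545 and 2.69 CPM in WT colon, a log2 fold change of 4.93 ± 1.00 (edgeR adjusted p = 0.0142). Paneth genes moved with it only in part, since Defa24 was at 0.407, 122, 50.8 and 0.853 CPM and Lyz1 at 4.48, 106, 62.9 and 4.43 CPM in the same tumours. The fourth tumour therefore held 58.4 CPM of Mmp7 with Defa24 at 0.853 CPM. The collagenase Mmp13, which cuts fibrillar collagen, was at 30.0, 6.99, 14.0 and 63.3 CPM in tumours against 3.64, 4.20 and 2.08 CPM, a log2 fold change of 3.05 ± 0.66 (edgeR adjusted p = 0.0180). Mmp8 was low throughout, at 0.407, 1.497, 2.12 and 2.31 CPM in tumours against 0.137, 0.272 and 0.0463 CPM in WT colon, where 3 reads are 0.139 CPM. It still rose by a log2 of 3.43 ± 0.81 (edgeR adjusted p = 0.0256). Mmp8 entered the test through the tumours, so the size of this fold is uncertain.

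Other genes of the system moved as well. Of the ADAM and ADAMTS proteases, relatives that shed surface proteins and cut proteoglycans, 11 of 13 tested rose, led by Adamts4 (log2 fold change 3.41) and Adam8 (3.33). Of the matrix proteins that serve as substrates, 11 of 12 rose, from Col5a1 (1.51) to Spp1 (7.22). Of the activation and surface partners, 6 of 9 rose, among them Plat, a plasminogen activator (3.61), and Plaur, the urokinase receptor (3.15), and Bsg, an inducer of these proteases, fell (-0.99). Only 3 of 11 AP-1 and ETS factors passed, Etv4 (3.31), Ets1 (1.62) and Junb (1.28). The rest of the metalloproteinase family was mixed, with 2 of 9 tested higher (Mmp19 at 1.21 and Mmp28 at 1.10) and Mmp16 lower (-1.83), and of 3 further inhibitors tested Timp3 rose (1.48).

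Markers of other cell types moved with these changes. Neutrophil markers other than Mmp8 summed to 29.1 to 92.0 CPM in tumours and 4.78 to 6.27 CPM in WT colon, and 7 of 7 tested rose. Macrophage markers summed to 879 to 1938 CPM against 555 to 650 CPM (3 of 10 rose) and fibroblast markers to 3958 to 5624 CPM against 1901 to 2544 CPM (4 of 10 rose, 1 fell), with none of these markers at 0 in either group. Their part in the changes was not tested. With Ddx3y as a term in the fit, the change rests on the only tumour below 10 CPM of it, since the controls had no library with it. The change was then 3.41 for Timp1, 4.64 for Mmp12, 5.21 for Mmp3 and 6.14 for Mmp10, and the other genes did not pass. Without WT colon replicate 1, or without WT colon replicate 3, 5 of the 10 genes were called, and Mmp2, Mmp7, Mmp8 and Mmp13 were not among them.

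**Figure D3:**
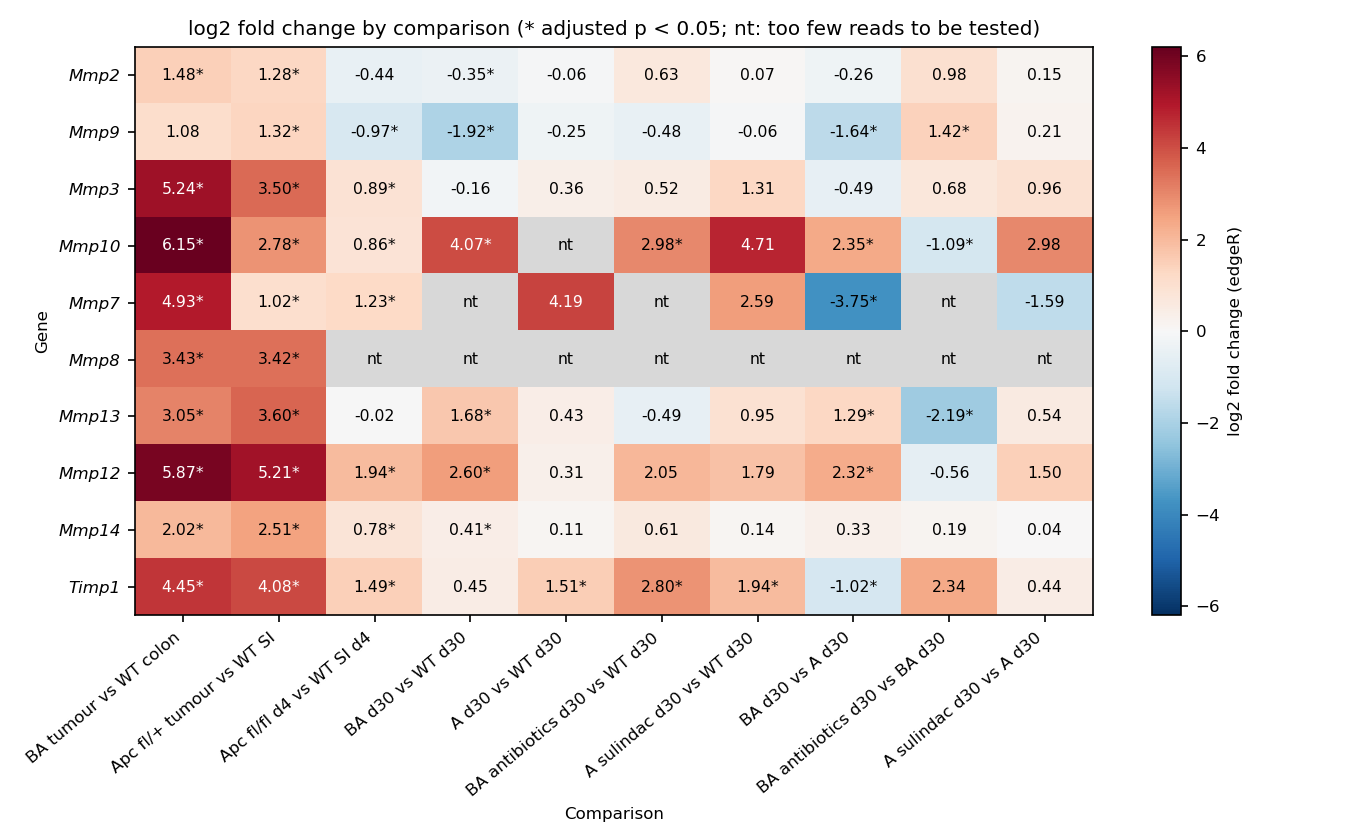
log2 fold change of each gene (rows) in each of 10 comparisons (columns), as colour and number; an asterisk marks an edgeR adjusted p under 0.05 and nt a gene with too few reads to be tested. The columns of both tumour types hold 9 and 10 called increases, and those of A mice on day 30 hold a call for Timp1 at most.

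On day 30, long before endpoint, BA colon was compared with WT colon of the same day. Here the family split. Mmp10, Mmp12, Mmp13 and Mmp14 rose, the gelatinases Mmp9 and Mmp2 fell, and Timp1 and Mmp3 did not pass. Mmp7 and Mmp8 had too few reads for the main edgeR test. Over all genes tested 25.8% rose and 29.3% fell, so 4 of 8 higher and 2 of 8 lower are to be read against high shares.

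Mmp10 was at 3.09, 4.59, 4.22, 3.23 and 3.12 CPM in the 5 BA mice and at 0.380, 0.159, 0.0471 and 0.377 CPM in the 4 WT mice. It rose by a log2 of 4.07 ± 0.36 (edgeR adjusted p = 4.59e-06), and the BA mice were close to one another. The WT values rest on 7, 3, 1 and 7 reads, and the gene entered the test through the BA mice, so the size of this fold is uncertain. Mmp12 was at 5.69, 4.93, 4.67, 1.84 and 4.41 CPM against 0.435, 0.691, 0.424 and 1.61 CPM, a log2 fold change of 2.60 ± 0.43 (edgeR adjusted p = 0.000402). It too entered the test through the BA mice. Mmp13 was at 20.3, 36.6, 18.7, 12.5 and 10.5 CPM against 7.28, 6.38, 8.75 and 4.74 CPM, a log2 fold change of 1.68 ± 0.34 (edgeR adjusted p = 0.00151). The groups did not overlap for these 3 genes, although the lowest BA mouse (1.84 CPM of Mmp12) was near the highest WT mouse (1.61 CPM). Mmp14 was at 54.2 to 69.9 CPM against 49.7 to 55.4 CPM, with overlap, and rose by a log2 of 0.41 ± 0.08 (edgeR adjusted p = 0.00164).

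Mmp9 went the other way. It was at 1.86, 1.68, 4.67, 1.04 and 1.88 CPM in BA mice and at 5.81, 10.6, 11.2 and 9.04 CPM in WT mice, and fell by a log2 of 1.92 (SE 0.36; edgeR adjusted p = 0.000917), without overlap. Mmp2 was at 44.4 to 61.2 CPM against 69.8 to 80.4 CPM and fell by 0.35 on the log2 scale (SE 0.10; edgeR adjusted p = 0.00896), also without overlap. Timp1 was at 1.10 to 1.92 CPM against 1.04 to 1.51 CPM (log2 fold change 0.45 ± 0.21, edgeR adjusted p = 0.0849), and Mmp3 was at 0.519 to 1.24 CPM against 0.424 to 2.44 CPM (-0.16 ± 0.47, edgeR adjusted p = 0.787). Both overlapped. With all 5 groups of day 30 in 1 fit, Mmp14 (adjusted p = 0.23) and Mmp2 (adjusted p = 0.48) no longer passed.

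Mmp8 was at 0.619, 0.728, 0.905, 0.0576 and 0.376 CPM in BA and at 0.163, 0.106, 0 and 0.0538 CPM in WT mice, where 3 reads are 0.160 CPM. The 3 alternative fits that kept Mmp8 all called it higher, at a log2 fold change of 2.80 to 2.94. With WT values this near the floor, the size of that fold is uncertain. Mmp7 was at 0.980 CPM or below in all 9 libraries of the 2 groups. Among the AP-1 and ETS factors 8 of 11 rose and 0 fell, led by Etv4 (3.04) and Fosl1 (2.48), with Fos at 1.33 and Junb at 1.30. Of the inhibitors other than Timp1, 3 of 3 tested fell, Reck (-1.06), Timp3 (-0.95) and Timp2 (-0.80), and of the other metalloproteinases Mmp28 (1.27) and Mmp15 (0.69) rose and Mmp17 (-1.06) and Mmp11 (-0.86) fell. Of the partners, 5 of 9 rose, with Plaur at 2.63. Of 12 matrix genes 2 rose, among them the laminin chain Lamb3 (2.1), and 4 fell. Of 13 ADAM and ADAMTS proteases 3 rose, led by Adam9 (0.79), and 5 fell, the most Adam15 (-0.97).

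The makeup of the tissue moved with these results too. Fibroblast markers summed to 989 to 1276 CPM in BA d30 and 1562 to 1954 CPM in WT d30, with 8 of 10 lower, and epithelial markers to 18520 to 21475 CPM against 9959 to 12018 CPM, with 7 of 8 higher. Neutrophil markers were near the same summed level, at 3.17 to 6.03 CPM against 3.81 to 6.46 CPM, with Mpo and Elane at 0 in BA and Elane and Ngp at 0 in WT libraries. Only 2 of the 11 neutrophil markers had enough reads to be tested, and 1 of them was lower. Of the smooth muscle markers 4 of 6 were lower, and of the endothelial markers 3 of 5. The part of these marker differences in the changes of the 10 genes was not tested.

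**Figure D4:**
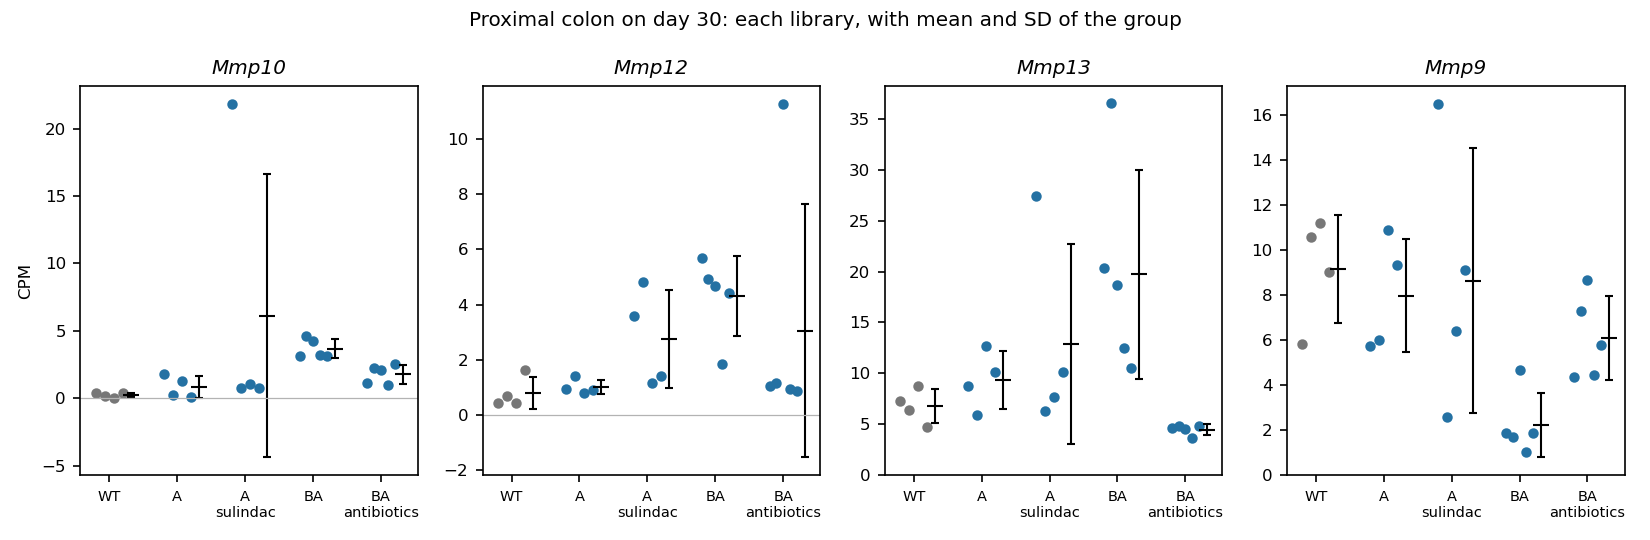
Mmp10, Mmp12, Mmp13 and Mmp9 in CPM in the 5 groups of proximal colon on day 30; each point is 1 mouse, and the bars give mean and SD of the group. BA mice are above WT for the first 3 genes and below WT for Mmp9, and 1 sulindac-treated and 1 antibiotic-treated mouse lie far above their groups.

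Loss of Alk5 alone was compared with the same WT d30 mice, which the day-30 comparisons with WT share. Timp1 was the only 1 of 8 genes tested to pass, where 0.096% of all genes rose and 0.0452% fell. It was at 4.93, 3.39, 3.75 and 3.07 CPM in A mice and at 1.36, 1.28, 1.04 and 1.51 CPM in WT mice. All 4 A mice were above all 4 WT mice, and the log2 fold change was 1.51 ± 0.24 (edgeR adjusted p = 0.0417). The size of this change held when each library was left out, at 1.33 to 1.61, but the adjusted p then lay between 0.0602 and 0.206. In A mice given sulindac, an inhibitor of cyclooxygenases, Timp1 was at 6.07, 4.36, 4.64 and 4.77 CPM. It was again the only call among 9 genes tested (log2 fold change 1.94 ± 0.21, edgeR adjusted p = 0.00860), where 0.0507% of all genes rose and 0% fell, and it was lost whenever 1 of the WT mice was left out. In that comparison edgeR called 0 genes lower, 1607 genes had an unadjusted p under 0.05, and DESeq2 called 49 and limma-voom 3 lower.

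No protease passed the test in A mice. For Mmp2, Mmp9, Mmp13, Mmp12, Mmp3 and Mmp14 the log2 fold change ran from -0.25 (Mmp9) to 0.43 (Mmp13). Mmp10, at 1.75, 0.200, 1.29 and 0.112 CPM against 0.380, 0.159, 0.0471 and 0.377 CPM, had too few reads to be tested, as did Mmp8. Mmp7 was at 11.9, 0.133, 3.69 and 1.00 CPM in A mice and at 0.706, 0.0531, 0 and 0.161 CPM in WT mice, a difference that did not pass (log2 fold change 4.19 ± 1.22, edgeR adjusted p = 0.441). Of the 7 other Paneth markers, Defa24 was at 15.9, 0.133, 8.72 and 0.0558 CPM in the same A mice, but the sum of the 7 was 17.3 to 70.7 CPM in A mice and 14.2 to 824 CPM in WT mice, where Mmp7 was low. Against WT mice the log2 fold changes under sulindac, none of which passed, were 4.71 for Mmp10, 2.59 for Mmp7, 1.79 for Mmp12, 1.31 for Mmp3, 0.95 for Mmp13, 0.14 for Mmp14, 0.07 for Mmp2 and -0.06 for Mmp9. In the sulindac group replicate 1 held 21.9 CPM of Mmp10, against 0.788, 1.03 and 0.751 CPM in the other 3, and 27.4 CPM of Mmp13 against 6.25 to 10.1 CPM. Against untreated A mice sulindac gave 0 calls among 9 genes tested and 0% and 0% of all genes higher and lower by edgeR. At an unadjusted p under 0.05 there were 460 genes, 2 of them in the family, and DESeq2 called 7 genes lower and 0 higher, and limma-voom 0. No gene of the 6 further lists was called by edgeR in A mice, with or without sulindac, where 3 genes of these lists in untreated and 9 in treated mice had an unadjusted p under 0.05 against WT. The log2 fold change of Mmp10 against untreated A mice was 2.98 ± 1.25 and fell to 0.04 without replicate 1.

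BA and A mice of day 30 differ by the Braf allele. Between them 3 of 9 genes tested were higher in BA mice (21.7% of all genes) and 3 lower (23.6% of all genes). The higher genes were Mmp10 (2.35 ± 0.54, edgeR adjusted p = 0.00498), Mmp12 (2.32 ± 0.33, adjusted p = 0.000239) and Mmp13 (1.29 ± 0.35, adjusted p = 0.0115), and the first 2 did not overlap. The lower ones were Mmp7 (-3.75 ± 1.11, edgeR adjusted p = 0.0171), Mmp9 (-1.64 ± 0.37, adjusted p = 0.00450) and Timp1 (-1.02 ± 0.22, adjusted p = 0.00321). Mmp7 had 3, 1, 1, 17 and 0 reads in the BA libraries and entered the test through the A mice, so the size of its fold is uncertain. Mmp10, at 0.112 to 1.75 CPM in A mice, entered it through the BA mice, so its fold is uncertain too. Mmp2 (-0.26), Mmp3 (-0.49) and Mmp14 (0.33) did not pass. Mmp8 had too few reads for this test, and 2 of the 3 alternative fits that kept it called it higher (1.66 to 1.77 over the 3). Timp1 was thus at 3.07 to 4.93 CPM with Alk5 lost alone and at 1.10 to 1.92 CPM with Braf mutated as well, without overlap. Fibroblast markers were lower in BA than in A mice for 6 of 10, neutrophil markers for 2 of 3 tested, and epithelial markers were higher for 7 of 8, and their part in these differences was not tested. Of the AP-1 and ETS factors 8 of 11 were higher in BA than in A mice, led by Fosl1 (3.16) and Etv4 (2.18), and Etv5 was lower (-0.59). Plaur (2.49), Lamb3 (2.14) and Mmp28 (1.24) were higher, and Lcn2 (-1.48), Mmp17 (-0.78), Timp2 (-0.62) and Adam15 (-1.08) lower. By list, 3 of 9 partners were higher and 1 lower, 2 of 12 matrix genes higher and 0 lower, 3 of 13 ADAM and ADAMTS proteases higher and 4 lower, 2 of 6 other metalloproteinases higher and 4 lower, and of 3 other inhibitors 1 lower. The call for Mmp7 was lost without A replicate 1 (adjusted p = 0.0751), and that for Timp1 with all 5 groups of day 30 in 1 fit (adjusted p = 0.21).

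Antibiotics were given to ask whether the microbiota bears on early changes in BA mice. Against untreated BA mice, Mmp13 and Mmp10 fell and Mmp9 rose among 8 genes tested, where 4.53% of all genes rose and 8.5% fell. Mmp13 was at 4.64, 4.77, 4.50, 3.596 and 4.85 CPM under antibiotics, all 5 below the lowest untreated BA mouse (10.5 CPM), and fell by 2.19 on the log2 scale (SE 0.31; edgeR adjusted p = 0.00147). Mmp10 was at 1.10, 2.20, 2.11, 0.941 and 2.51 CPM, again below every untreated BA mouse, and fell by 1.09 on the log2 scale (SE 0.27; edgeR adjusted p = 0.0246). Mmp9 was at 4.35, 7.28, 8.67, 4.43 and 5.77 CPM and rose by a log2 of 1.42 ± 0.37 (edgeR adjusted p = 0.0274), with overlap. The call for Mmp13 held without any 1 library, whereas that for Mmp10 was lost without BA replicate 2 or 3 and that for Mmp9 in 6 of 10 such fits.

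Antibiotic replicate 3 decides most of the other values. It held 327 CPM of Mmp2, 168 CPM of Mmp14, 33.7 CPM of Timp1, 11.3 CPM of Mmp12 and 5.17 CPM of Mmp3, whereas the other 4 mice had 53.6 to 59.7, 49.96 to 53.5, 1.44 to 3.49, 0.859 to 1.16 and 0.232 to 0.613 CPM of these genes. Col1a1 was at 1540 CPM in that library and at 140 to 203 CPM in the others, and S100a8 at 7.5 CPM and at most 0.174 CPM. With it the change of Mmp12 was -0.56 (edgeR adjusted p = 0.620) and that of Mmp14 was 0.19 (adjusted p = 0.713). Those of Timp1 (2.34), Mmp2 (0.98) and Mmp3 (0.68) did not pass either. Without it Mmp12 fell by 2.14 on the log2 scale (adjusted p = 0.00162), Mmp14 fell by 0.33 (adjusted p = 0.0138), and 5 genes were called in place of 3.

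Against WT d30 mice, antibiotic-treated BA mice had 2 genes of 8 higher and 0 lower by edgeR, where 21.8% of all genes rose and 17.8% fell. At an unadjusted p under 0.05 there were 4 of the 8, and DESeq2 and limma-voom called 1 gene each. Mmp10 rose by a log2 of 2.98 ± 0.50 (edgeR adjusted p = 0.000984), without overlap, so it was above WT and below untreated BA. It entered the test through the treated BA mice, so the size of this fold is uncertain. Mmp12 (2.05), Mmp14 (0.61), Mmp2 (0.63), Mmp3 (0.52) and Mmp9 (-0.48) did not pass. Nor did Mmp13, with a log2 fold change of -0.49 ± 0.19 (edgeR adjusted p = 0.0674) and levels of 3.596 to 4.85 CPM against 4.74 to 8.75 CPM. Timp1 passed (2.80 ± 1.00, edgeR adjusted p = 0.0482), but overlapped and was 0.85 without replicate 3 (adjusted p = 0.0397). Without that library Mmp2 was called lower (-0.30, adjusted p = 0.00837). Mmp7 had 0 reads in each of the 5 treated libraries, which allows up to 0.174 CPM at 3 reads. Etv4 (3.2), Fosl1 (1.92) and 5 further AP-1 and ETS factors of 11 were still above WT, and against untreated BA mice 1 of 11, Jun (-0.51), fell. Plaur (2.72) and Lamb3 (1.65) were above WT as well, and Mmp15 (-0.65), Mmp28 (-0.51) and Lamb3 (-0.46) were below untreated BA mice. By list, 5 of 9 partners were above WT and 1 below, 3 of 13 ADAM and ADAMTS proteases above and 1 below, 2 of 12 matrix genes and 1 of 7 other metalloproteinases above, and none of 3 other inhibitors passed. Against untreated BA mice 1 of 9 partners, 2 of 13 ADAM and ADAMTS proteases, 2 of 7 other metalloproteinases and 1 of 12 matrix genes were lower, and 1 matrix gene was higher.

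In the small intestine the Apc fl/+ tumours, which arise by loss of the Wnt regulator Apc, were compared with WT tissue. All 10 genes rose, and no tumour overlapped with a control for any of them. The share of all genes without overlap was not counted here either. Of 20567 genes tested in this comparison 6461 (31.4%) rose and 6189 fell. The median log2 fold change was 3.10 over the 10 genes and 0.03 over all genes. Every call held without any 1 library.

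Mmp12 and Timp1 changed most. Mmp12 was at 15.6, 113, 13.1, 16.7 and 15.4 CPM in tumours and at 0.848, 0.910 and 0.870 CPM in WT tissue, a log2 fold change of 5.21 ± 0.95 (edgeR adjusted p = 0.00159) and of 4.14 without tumour 2, which alone was that high. Timp1 was at 15.6, 10.8, 12.0, 19.7 and 15.7 CPM against 1.05, 0.750 and 0.816 CPM (4.08 ± 0.30, edgeR adjusted p = 2.66e-05), and changed by 4.20 without tumour 2, slightly more than Mmp12. The collagenases Mmp13, at 69.7, 176, 79.9, 129 and 77.4 CPM against 8.18, 10.4 and 7.13 CPM, and Mmp8, at 4.22, 5.07, 2.81, 6.94 and 4.76 CPM against 0.449, 0.535 and 0.326 CPM, rose by a log2 of 3.6 ± 0.34 (edgeR adjusted p = 7.05e-05) and 3.42 ± 0.36 (adjusted p = 0.000122). The lowest tumour had 69.7 CPM of Mmp13 and 2.81 CPM of Mmp8. Mmp8 entered the test through the tumours, so the size of its fold is uncertain.

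The stromelysins rose from very different levels. Mmp10 was already at 37.2, 41.8 and 43.5 CPM in WT small intestine and at 279.6, 226, 249, 385 and 262 CPM in tumours (2.78 ± 0.23, edgeR adjusted p = 3.89e-05), and Mmp3 went from 0.948, 1.45 and 0.979 CPM to 8.54, 9.21, 5.57, 10.4 and 30.51 CPM (3.5 ± 0.63, adjusted p = 0.00152). Mmp14 was at 218 to 325 CPM against 43.8 to 48.5 CPM (2.51 ± 0.12, edgeR adjusted p = 8.19e-06), Mmp9 at 68.7 to 80.1 CPM against 24.1 to 37.9 CPM (1.32 ± 0.17, adjusted p = 0.000290) and Mmp2 at 81.8 to 127 CPM against 38.4 to 40.2 CPM (1.28 ± 0.12, adjusted p = 6.82e-05). Mmp7 changed least, from 75.8, 136 and 100.3 CPM to 192, 330.1, 159.8, 165 and 231 CPM (1.02 ± 0.25, edgeR adjusted p = 0.00707), while 5 of 7 other Paneth markers fell. With Ddx3y as a term, where the change rests on the only tumour with it, that of Mmp7 was 0.93 and no longer passed.

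Partner genes rose in these tumours as well. Of the activation and surface partners 9 of 9 rose, with Lcn2, which binds Mmp9, at 6.15 and Plat at 5.78, of AP-1 and ETS factors 9 of 11, led by Etv5 (4.06), of ADAM and ADAMTS proteases 11 of 13, led by Adam8 (2.75), and of matrix substrates 11 of 12, led by Spp1 (6.90). Of the other inhibitors A2m (6.84), Timp3 (1.20) and Timp2 (1.08) rose and Reck (-0.70) fell, and of 11 other metalloproteinases 4 rose, led by Mmp28 (1.68), and 2 fell, the most Mmp21 (-1.97). Neutrophil markers other than Mmp8 summed to 17.7 to 108 CPM in tumours and 8.33 to 9.68 CPM in WT tissue. Fibroblast markers summed to 3023 to 4269 CPM against 1384 to 1652 CPM. Macrophage markers summed to 356 to 1013 CPM (median 436) against 407 to 490 CPM (median 431), and 1 of 10 rose and 1 fell. Of these markers Elane alone was at 0 in either group, and their part in the changes was not tested.

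Apc fl/fl tissue shows the small intestine 4 days after both copies of Apc were removed. Among 9 genes tested 6 rose and Mmp9 fell, where 27.5% of all genes rose and 26.7% fell, and Mmp8 had too few reads. The called changes ran from -0.97 to 1.94 on the log2 scale. Mmp10 was the only one without overlap, with 50.3 at the lowest, 89.7 at the median and 99.2 CPM at the highest in 10 Apc fl/fl mice and 31.0, 36.4 and 45.5 CPM in 6 WT mice (log2 fold change 0.86 ± 0.12, edgeR adjusted p = 2.36e-05). Mmp7 was at 203, 407 and 555 CPM (lowest, median and highest) against 40.02, 117 and 267 CPM (1.23 ± 0.31, edgeR adjusted p = 0.00294), and Mmp14 at 21.7, 114 and 176 CPM against 43.4, 50.2 and 59.6 CPM (0.78 ± 0.23, adjusted p = 0.00918). For Mmp14 only replicate 8, whose fibroblast markers were the lowest of the group at 446 CPM, lay below the WT mice.

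Mmp12 was at 1.01, 2.47 and 18.0 CPM (lowest, median and highest) against 0.555, 0.877 and 1.38 CPM (1.94 ± 0.54, edgeR adjusted p = 0.00579), and Mmp3 at 1.93, 4.12 and 5.61 CPM against 0.994, 1.72 and 3.52 CPM (0.89 ± 0.26, adjusted p = 0.00750). Mmp9 was at 3.87, 15.7 and 32.003 CPM against 19.97, 29.5 and 42.9 CPM and fell by 0.97 on the log2 scale (SE 0.22; edgeR adjusted p = 0.00146). Timp1 was at 0, 4.43 and 30.9 CPM against 0.798, 1.96 and 5.00 CPM, where the 0 is the shallowest library, in which 3 reads are 5.80 CPM. It passed (1.49 ± 0.59, adjusted p = 0.0406) but not without Apc fl/fl replicate 5, its highest library, where the change was 0.86 (adjusted p = 0.103). Mmp13 (-0.02 ± 0.23, adjusted p = 0.959) and Mmp2 (-0.44 ± 0.27, adjusted p = 0.174) did not pass. With the 7 Apc fl/fl libraries left after replicates 1, 5 and 8 were set aside, Timp1 was not called (0.70, adjusted p = 0.108), Mmp2 was called lower (-0.49, adjusted p = 0.00121), Mmp12 was at 1.31 (adjusted p = 0.00100), and the calls for Mmp3, Mmp7, Mmp9, Mmp10 and Mmp14 held. Of the AP-1 and ETS factors Fosl1 (3.68), Etv4 (3.39), Etv5 (1.54) and Ets2 (0.94) rose and Ets1 (-0.83) and Fos (-0.47) fell, and of the partners Cd44 (2.37), Plat (1.99) and Plaur (1.79) rose. Spp1 (3.48), Lamb3 (1.08), Adamts4 (1.58) and Adam8 (1.54) rose too, and Mmp11 (-0.97), Mmp25 (-0.95), Mmp23 (-0.72) and Reck (-0.94) fell. By list, 3 of 9 partners and 3 of 12 matrix genes rose, 3 of 13 ADAM and ADAMTS proteases rose and 2 fell, 3 of 10 other metalloproteinases fell, and 1 of 3 other inhibitors fell.

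The differences between effects were tested directly, each effect being the change against its own WT tissue. Of all genes tested, 16.3% differed in either direction between BA tumours and BA colon of day 30. For 7 of the 10 genes the log2 fold change was higher in BA tumours. Among those that passed, the largest difference was that of Mmp3 (5.40 ± 0.76 on the log2 scale, edgeR adjusted p = 0.000321), followed by Timp1 (3.98 ± 0.41, adjusted p = 4.29e-05), Mmp12 (3.25 ± 0.69, adjusted p = 0.00468) and Mmp9 (2.98 ± 0.54, adjusted p = 0.00189). Mmp10 (2.08 ± 0.62, edgeR adjusted p = 0.0316), Mmp2 (1.82 ± 0.27, adjusted p = 0.000442) and Mmp14 (1.61 ± 0.23, adjusted p = 0.000365) also differed. Mmp10 was at 0.0471 to 0.380 CPM in WT d30 and 0.218 to 0.973 CPM in WT colon. The size of its difference is therefore uncertain. The change of Mmp9 was -1.92 on day 30 and 1.08 in tumours, where it was not called. That of Mmp2 was -0.35 on day 30 and 1.48 in tumours. Mmp13 did not pass (1.37, adjusted p = 0.217), nor did Mmp7 and Mmp8. Of these genes, Mmp3 and Timp1 had been tested on day 30 without a call. In the same contrast 5 of 7 neutrophil, 6 of 10 macrophage, 6 of 10 fibroblast and 3 of 5 endothelial markers were higher, 1 fibroblast marker and 5 of 8 epithelial markers lower, and their part in the differences was not tested.

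Between Apc fl/+ tumours and Apc fl/fl tissue of day 4 the change differed for 8 of 10 genes (24.7% of all genes), and each of the 8 was larger in tumours. Mmp13, with -0.02 on day 4 and 3.6 in tumours, differed most (3.58 ± 0.43, edgeR adjusted p = 9.09e-06), then Mmp12 (3.22 ± 0.99, adjusted p = 0.0206), Mmp3 (2.57 ± 0.57, adjusted p = 0.00249), Timp1 (2.56 ± 0.91, adjusted p = 0.0416), Mmp9 (2.24 ± 0.36, adjusted p = 0.000143), Mmp10 (1.89 ± 0.25, adjusted p = 2.30e-05), Mmp14 (1.69 ± 0.36, adjusted p = 0.00195) and Mmp2 (1.68 ± 0.43, adjusted p = 0.00668). Mmp7 (-0.26, edgeR adjusted p = 0.728) and Mmp8 (2.05, adjusted p = 0.0607) did not. Mmp12 was lost without Apc fl/+ tumour 2 (2.15, edgeR adjusted p = 0.0525) or without any 1 of the 3 WT mice, and Timp1 in 14 of 24 fits with a library left out. In this contrast 5 of 7 neutrophil, 7 of 10 fibroblast and 4 of 5 endothelial markers were higher and 3 of 7 Paneth markers lower, and their part was not tested.

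Between the 2 tumour types the change differed for 2 of 10 genes, where 39.7% of all genes tested did. Mmp7 (3.91 ± 0.93, edgeR adjusted p = 0.00568) and Mmp10 (3.40 ± 0.44, adjusted p = 0.000132) rose more in BA tumours, and both calls held without any 1 library. With Mmp10 at 0.218 to 0.973 CPM in WT colon, the size of its difference is uncertain. In absolute level Mmp7 and Mmp10 were nevertheless higher in every Apc fl/+ tumour (at least 159.8 CPM of Mmp7 and 226 CPM of Mmp10) than in every BA tumour (at most 113 and 46.5 CPM), since WT colon held far less of them than WT small intestine. Of the Paneth markers other than Mmp7, 5 of 7 were higher in this contrast, with a median log2 difference of 4.35. Against their own WT tissue, 1 of 5 tested rose in BA tumours. In Apc fl/+ tumours, where Mmp7 rose, 1 of 7 rose and 5 fell. Of the macrophage markers 4 of 10 were higher in this contrast, and the part of both lists was not tested. For the other 8 genes the difference of the 2 changes ran from -0.52 (Mmp13) to 1.76 (Mmp3) and did not pass. Without BA tumour 4, Mmp14 (-0.76, edgeR adjusted p = 0.0237) and Mmp13 (-1.39, adjusted p = 0.0490) were also called, and without Apc fl/+ tumour 2, Mmp12 (1.65, adjusted p = 0.0280). Tissue and mouse background differ between the 2 tumour models, and neither can be told apart from genotype here.

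**Figure D5:**
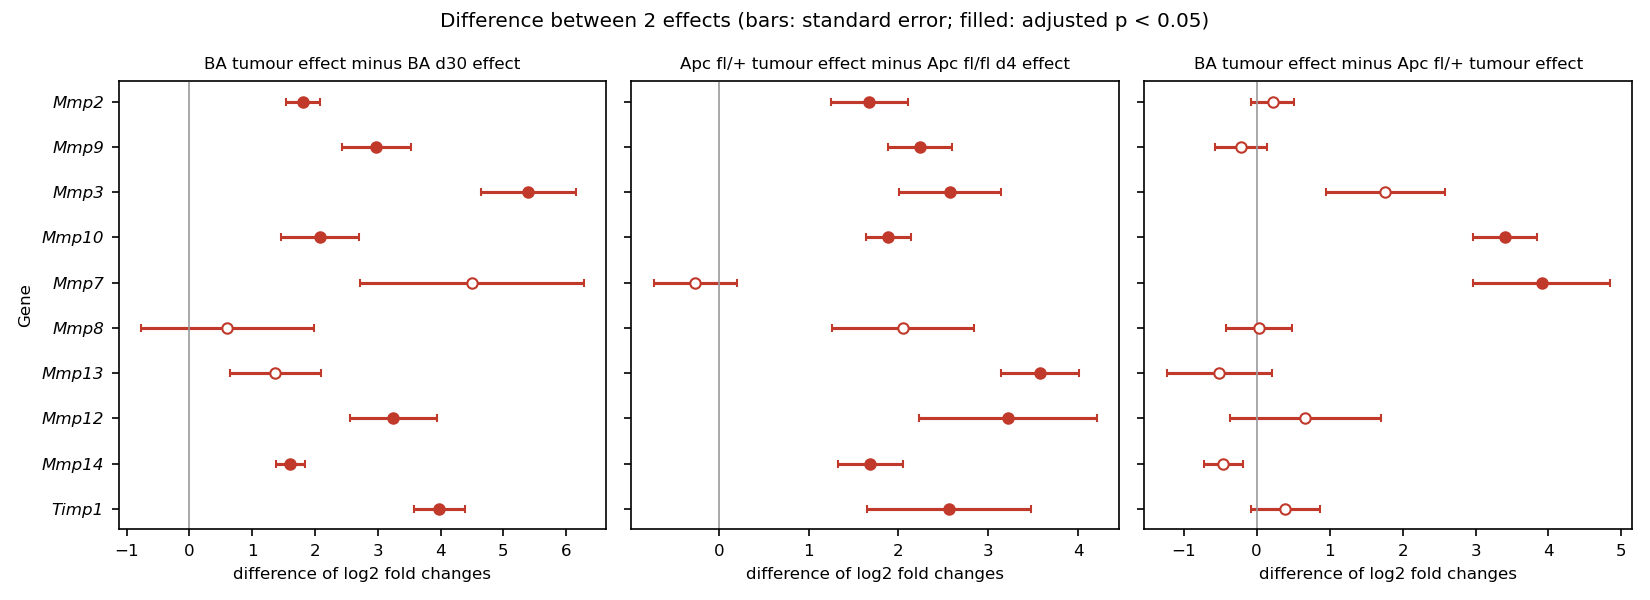
Difference between 2 changes, each against its own WT tissue, for each gene on the log2 scale, with bars for the standard error and filled points for an edgeR adjusted p under 0.05. Filled points number 7 for BA tumours against BA colon of day 30, 8 for Apc fl/+ tumours against Apc fl/fl tissue of day 4, and 2 (Mmp10 and Mmp7) between the tumour types.

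Across the 11 group means of log2 CPM, the members most alike were Mmp12 and Mmp14 (r = 0.91), Mmp8 and Mmp13 (r = 0.91) and Mmp3 and Timp1 (r = 0.90), and Mmp2 and Mmp7 were least alike (r = -0.16). These values describe 11 points that share tissue and, for some, controls. Among all genes with a mean of at least 1 CPM, the 3 whose group means were most like those of each of 8 of the genes by the same measure were Lbp, Rgs4 and Tm4sf1 for Mmp2, Grem1, Col18a1 and Frzb for Mmp3, Sh3rf1, Galnt2 and Ube2j1 for Mmp10, and Slfn2, Spns3 and Tm4sf4 for Mmp7. They were Smpd3, Inhba and Psapl1 for Mmp8, Tff1, Gkn1 and Tnfrsf9 for Mmp13, Chit1, Clu and Vtcn1 for Mmp14, and Ccn1, Bdkrb1 and Adamts4 for Timp1.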

How the data were processed

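RNA of 53 mouse tissue samples was sequenced as paired 36-base reads. Per the labels and the study's methods, the authors trimmed reads with Trim Galore 0.6.4 after quality checks with FastQC 0.11.8, aligned them to GRCm38 with HISAT2 2.1.0 and made the deposited counts per gene with featureCounts 1.6.4. Whether strand was used in counting, and how multi-mapping reads were handled, is not given in the sources used here. The deposited table held raw counts for 55421 identifiers, of which 55154 matched a symbol in the GENCODE M21 annotation.

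CPM was each count over the library's total, scaled to a common total, and, between genes, was divided by exon length in kilobases. Each pair of groups was fitted alone with edgeR 4.0.16 (filterByExpr, TMM, glmQLFit and glmQLFTest, two-sided) in R 4.3.3, and p-values were adjusted by Benjamini-Hochberg over all genes tested, at a threshold of 0.05. Differences between 2 effects were interaction contrasts over 4 groups. A standard error is the log2 fold change divided by the square root of F. Alternatives were RLE scaling, DESeq2 1.42.0, limma-voom with quality weights (limma 3.58.1), no low-count filter, a replicate block, all day-30 groups in 1 fit, a Ddx3y term and leaving out each library. Leaving out libraries in the interaction fits, and the fit with 7 Apc fl/fl libraries, were chosen after seeing the data.

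The 10 genes, the further lists and the markers were chosen with earlier results of these data known. All 10 genes are counted in every comparison where they were tested, and those that passed are named. Genes that did not pass are named in most comparisons. From each further list, in comparisons of 2 groups, its counts are given, with the called genes of highest and lowest change and up to 5 more. A few genes that this rule names, and the genes most like Mmp9 and Mmp12, are not reported here. Levels of cell types in the whole tissue were followed with marker lists, which do not show which cells made a transcript. Replicates are separate mice, and of 120 replicate pairs none matched within sampling noise (chi-square per degree of freedom at least 4.18). The fits were tested on simulated data in which some genes changed by a log2 of 2. They called 58.5% (BA tumours against WT colon) to 94.5% of the changed genes in comparisons of 2 groups. In the interaction contrasts they called 46.5% (between tumour types) to 60%. A gene that was not called in these fits may therefore still differ. Floors of 3 reads cover counting error only. Figures were drawn with matplotlib 3.10.9.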

Additional observations from a re-analysis of the deposited data

Results flagged for a closer look

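In groups of 4 to 10 mice, the highest or lowest library stood apart from the rest by Dixon's criterion in 18 of 90 pairs of gene and group. For independent, normally distributed values the criterion gives about 1 in 20. CPM values need not be normal, and the pairs share libraries, so 18 of 90 cannot be read as an excess over chance. Antibiotic-treated BA replicate 3 was the highest library for 6 genes, with 327 CPM of Mmp2, 5.17 CPM of Mmp3, 0.445 CPM of Mmp8, 11.3 CPM of Mmp12, 168 CPM of Mmp14 and 33.7 CPM of Timp1. Apc fl/fl replicate 5 was the highest for 4 genes, with 118 CPM of Mmp2, 18.0 CPM of Mmp12, 32.8 CPM of Mmp13 and 30.9 CPM of Timp1. Sulindac-treated A replicate 1 stood out in Mmp10 (21.9 CPM) and Mmp8 (0.779 CPM), and replicate 2 of that group in Mmp7 (3.52 CPM). Single values that stood apart were 113 CPM of Mmp12 in Apc fl/+ tumour 2, 30.51 CPM of Mmp3 in Apc fl/+ tumour 5, 4.67 CPM of Mmp9 in BA d30 replicate 3, 0.980 CPM of Mmp7 in BA d30 replicate 4 and, as the lowest of its group, 3.596 CPM of Mmp13 in antibiotic-treated BA replicate 4.

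Differences between 2 effects passed the edgeR interaction test for 17 of 30 gene and contrast pairs, all given with their errors in the text above. Between BA and Apc fl/+ tumours they were 3.40 (Mmp10) and 3.91 (Mmp7) on the log2 scale. Between BA tumours and BA colon of day 30 they were 2.98 (Mmp9), 3.98 (Timp1), 1.82 (Mmp2), 1.61 (Mmp14), 3.25 (Mmp12), 5.40 (Mmp3) and 2.08 (Mmp10). Between Apc fl/+ tumours and Apc fl/fl tissue of day 4 they were 2.24 (Mmp9), 2.56 (Timp1), 1.68 (Mmp2), 1.69 (Mmp14), 3.58 (Mmp13), 3.22 (Mmp12), 2.57 (Mmp3) and 1.89 (Mmp10). As stated above, the sizes of the Mmp10 differences that involve BA tumours are uncertain.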

How the results depend on the processing

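Of the 10 genes, 9 were called in BA tumours. Fewer were called with a Ddx3y term, where the tumour effect rests on the only tumour without Ddx3y. The 1 call in A mice, the 1 call in sulindac-treated A mice and the 2 in antibiotic-treated BA mice against WT became 0, 0 and 1 with a replicate block. They became 0 and 0 for A and sulindac-treated A mice with all day-30 groups in 1 fit, and 1 for antibiotics in DESeq2 and in limma-voom. Leaving out 1 library gave 5 to 9 calls in BA tumours, 0 to 0 in A mice, 0 to 1 under sulindac, 1 to 3 under antibiotics against WT, 1 to 5 against untreated BA mice and 2 to 4 between tumour types. The cause was not tested.

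Equal replicate numbers name different mice, and their deviations from the group means correlated at -0.47 to 0.28, in no comparison above 0.1 for every pair, so the replicate block pairs numbers only. Under it 7 genes were called in BA tumours and 6 in Apc fl/fl tissue.

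Direction turned for genes that were not called. In limma-voom these were Mmp3 in BA d30 (0.083), Mmp14 in A mice (-0.039), Mmp2 (-0.14) and Mmp3 (-0.43) under antibiotics against WT, Mmp14 (-0.22) and Mmp3 (-0.53) against BA, and Mmp7 under sulindac against A (0.10). With the replicate block they were Mmp13 in Apc fl/fl (0.11), Mmp3 under antibiotics against BA (-0.019) and Mmp9 under sulindac against A (-0.073), and with no low-count filter Mmp8 between tumour types (-0.12).

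With 1 library left out, ranges that crossed 0 were -0.44 to 0.59 (Mmp3, BA d30), -0.12 to 0.027 (Mmp2) and -0.056 to 0.26 (Mmp14) in A mice, -0.30 to 0.75 (Mmp2) and -1.00 to 1.28 (Mmp3) under antibiotics against WT, -0.33 to 0.30 (Mmp14) and -0.84 to 0.95 (Mmp3) against BA, -0.60 to 0.26 (Mmp9) and -0.077 to 0.19 (Mmp2) under sulindac against WT, -0.36 to 0.50 (Mmp9), -0.015 to 0.28 (Mmp2), -0.12 to 0.21 (Mmp14) and -0.19 to 0.77 (Mmp13) against A, -0.18 to 0.076 (Mmp13, Apc fl/fl), -0.054 to 0.30 (Mmp2) and -0.39 to 0.55 (Mmp8) between tumour types, and -0.49 to 0.0070 (Mmp7, Apc fl/+ tumours against Apc fl/fl).

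Over all genes, BA tumours had 1431 higher and 1096 lower, against 3205 and 3183 in limma-voom, 623 and 308 with the block, 147 and 21 with the Ddx3y term, and 1661 lower in DESeq2. A mice had 17 and 8, against 85 and 47 in DESeq2 and 51 and 21 unfiltered. Sulindac against WT had 9 and 0, against 59 and 49 in DESeq2, 14 and 3 in limma-voom, 18 and 6 unfiltered, 2 and 0 with the block and 25 and 4 with all day-30 groups. Apc fl/+ tumours had 6461 and 6189, against 3877 and 3153 with the Ddx3y term and 4075 higher with the block. Antibiotics against BA had 755 and 1417, against 1262 higher in limma-voom, 454 higher unfiltered, 320 higher with the block, and 414 and 660 with all day-30 groups.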
